A study of Homo sapiens with 6 samples.

Results

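The 2 vehicle-treated libraries of the human prostate cancer cell line 22Rv1 are described here gene by gene, out of 6 libraries in the series. They were chosen by their label alone, as the libraries of cells given vehicle, and each of the 20297 genes in the deposited table was taken as measured in both. The other 4 libraries came from cells given the compounds Drug_0120 or Drug_CN27, agents of a study of an inhibitor of the linker histone H1-10, and none of their values is used. The labels name neither the solvent nor its dose or duration, and all groups share the same cell line. Cells were grown as their supplier recommends, so the hormone content of the medium is not known from the labels. Whether replicate 1 and replicate 2 were separate cultures is not stated, and their spread may be technical only. Levels are in TPM, transcripts per 1000000, which is corrected for transcript length and so allows genes to be set beside each other. Paired values are given as replicate 1 and replicate 2, and a mean is followed by its SD with n = 2.

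22Rv1 cells descend from a human prostate tumour grown in mice that came back after castration. Luminal cells of the prostate line its glands, secrete prostatic fluid and depend on testosterone and dihydrotestosterone. These androgens switch on genes for secreted proteases, lipid and polyamine metabolism and the co-chaperone FKBP5, with help from DNA-binding factors such as FOXA1 and HOXB13. Androgens are made from cholesterol in testis and adrenal gland, and prostate tissue can convert, activate or inactivate them.

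Of the 20297 genes, 12764 had at least 1 TPM in both libraries, and such genes are called detected. That is 62.9% of the table, with 12943 genes passing in replicate 1 and 12917 in replicate 2. Later counts of detected list members are to be read beside this share, and a count near it does not set a list apart. At the top, 1567 genes (7.72%) had at least 100 TPM in both libraries, and at the bottom 2998 genes (14.8%) were listed at 0 TPM in both. No component of the core machinery lists other than RPL10L, a testis-type ribosomal protein, was among those listed at 0. A further 1080 genes were at 0 in only 1 library, and the highest mean among them was 7.19 TPM. The median gene had 6.29 TPM and the median detected gene 21.7 TPM. The genes of the table summed to 806820 and 818548 TPM. If each library summed to 1000000 TPM before deposit, 19.3% and 18.1% of the TPM lay outside these genes.

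**Figure D1:**
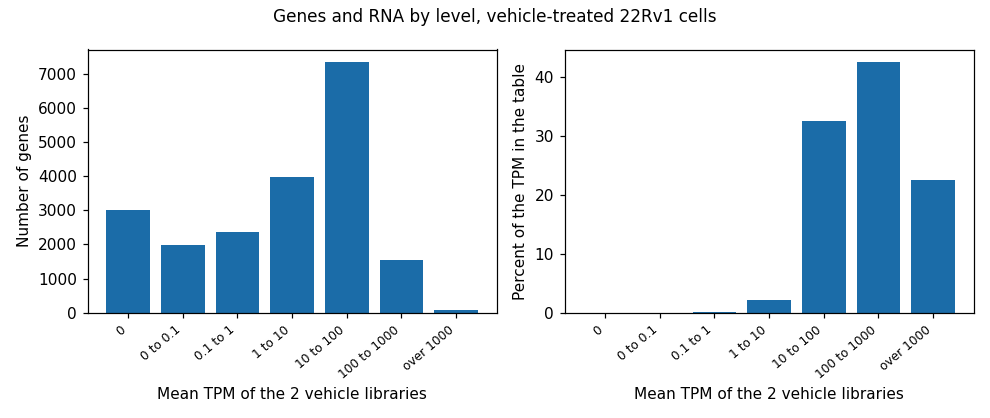
Number of genes (left) and percent of the TPM in the table (right) in each class of mean TPM over the 2 vehicle libraries. The class from 10 to 100 TPM holds 7342 genes and 32.6% of the TPM, and the 95 genes over 1000 TPM hold 22.5%.

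The RNA was concentrated in few genes. The 10 genes with the highest mean held 4.47% ± 0.0815 (SD, n = 2) of the 1000000 TPM of a library, the top 100 held 18.8% ± 0.498 and the top 1000 held 45.3% ± 0.907. A set of 728 genes carried 50% of the TPM in the table. As the plot of genes by level shows, the largest class was that from 10 to 100 TPM, with 7342 genes. Across the 12764 detected genes the libraries had a Pearson r of 0.997 and a Spearman rho of 0.997 on log2(TPM + 1), a description across genes, which are not replicates. The median detected gene differed by 1.06-fold, and 33 genes, 0.259% of those detected, differed by 2-fold or more. Genes under 1 TPM in either library, such as RPL36A-HNRNPH2 below, were outside this count.

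Among genes with a mean of at least 10 TPM, the 5 largest differences between the replicates in each direction on log2(TPM + 1) included genes with an overlapping or near-identical neighbour. RPL36A-HNRNPH2, a read-through of a pair of adjacent genes, had 0.663 and 129 TPM. The near-identical copies GATD3A and GATD3B crossed over, with GATD3A at 127 and 21.4 TPM and GATD3B at 78.4 and 188 TPM. NDUFB8, a subunit of respiratory complex I, had 337 and 135 TPM. ZBED6, which lies inside ZC3H11A, had 18.7 and 9.18 TPM, and its host ZC3H11A had 30.5 and 51.2 TPM. PIK3R2, a regulatory subunit of PI3 kinase, had 18.0 and 44.0 TPM. DNLZ, STBD1 and USP8 were the other genes so chosen, and no later result rests on any of the 10.

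Protein synthesis, the cytoskeleton and glycolysis led the genes of the table. Of the 30 genes with the highest mean, 18 encoded ribosomal proteins. All 30 were nuclear genes, and RNA from outside the table was not ranked. RPS2, of the small ribosomal subunit, was the highest gene of the table at 6333 and 6676 TPM. The ribosomal protein list had 79 of 81 members detected and made up 11.2% of each library's 1000000 TPM on average. Below RPS2 came RPL8 of the large subunit, at 3939 and 4164 TPM, and RPS18 of the small subunit, at 3642 and 3712 TPM.

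The other 12 genes of the top 30 were TMSB10, GAPDH, EEF1A1, ACTB, ACTG1, TUBA1B, EEF2, PTMA, CKB, ATP5F1B, TPI1 and RACK1. TMSB10, thymosin beta 10, binds actin monomers and had 5827 and 5841 TPM, the second highest level. GAPDH of glycolysis had 4914 and 5319 TPM. EEF1A1, which brings aminoacyl-tRNA to the ribosome, had 5255 and 4712 TPM, so it was above GAPDH in replicate 1 and below it in replicate 2. CKB, the brain-type creatine kinase that buffers ATP, had 2372 and 2586 TPM and stood beside housekeeping genes. ATP5F1B, the catalytic subunit of the mitochondrial ATP synthase, had 2139 and 2202 TPM. PTMA, prothymosin alpha, an acidic nuclear protein, had 2579 and 2535 TPM.

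Genes of dividing cells were detected throughout. All 18 genes of the replication and mitosis list passed, with a median of 169 TPM. CDC20, which activates the anaphase-promoting complex in mitosis, had 491 and 514 TPM. MCM7, a part of the replicative helicase, had 467 and 478 TPM, and PCNA, the polymerase clamp, had 389 and 404 TPM. All 31 proteasome subunits, 12 RNA polymerase II subunits, 8 chaperonin subunits and 20 translation factors were detected as well.

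The study's target family, the linker histones, had 4 of 10 members detected. H1FX, the gene now named H1-10, led the family with 450.4 and 464 TPM, and held 53.1% ± 0.911 of its summed TPM. H1F0, a linker histone typical of differentiated cells, had 382 and 373 TPM, so H1FX was 1.21 ± 0.0456 times as high and the library ranges did not overlap. HIST1H1C had 24.5 and 24.7 TPM, and HIST1H1E 1.01 and 1.02 TPM. HIST1H1T, H1FNT and H1FOO, known from the testis or the egg, were listed at 0 TPM. Replication-dependent histone transcripts mostly lack a poly(A) tail, and these libraries were made from poly(A) RNA, so their levels are not comparable with those of H1FX and H1F0.

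The libraries carried the markers of prostate luminal cells. All 12 luminal markers were detected, with a median of 132 TPM against 6.29 TPM over all genes, and 7 of them had at least 100 TPM in both libraries. KRT8, a keratin of simple and luminal epithelium, had 722 and 788 TPM, and its partner KRT18 had 413 and 447 TPM. FOLH1, the prostate-specific membrane antigen, had 208 and 205 TPM, a range that overlapped that of E-cadherin, CDH1, at 208 and 194 TPM. EPCAM, an epithelial adhesion molecule, had 56.1 and 54.1 TPM.

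The lowest luminal markers were KLK2, KLK3, TMPRSS2 and ACPP. KLK2 averaged 14.5 ± 0.588 TPM, and KLK3, which encodes prostate-specific antigen, had 7.71 and 6.12 TPM. TMPRSS2, a surface protease, had 3.72 and 3.61 TPM, and ACPP, prostatic acid phosphatase, had 2.90 and 2.04 TPM. These 4 genes lay below the other 8 luminal markers in both libraries.

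Of 8 basal markers, DST (5.71 and 5.12 TPM) and NGFR (3.02 and 2.73 TPM) were detected, and the other 6 lay under 1 TPM in both libraries. The keratins KRT5 and KRT14, which define basal cells, were listed at 0 TPM, and TP63, the basal transcription factor, had 0.0552 and 0.0374 TPM. The list summed to 9.75 and 9.02 TPM, against 2619 and 2627 TPM for the luminal list. In a culture such as this, fewer cells of a type and less RNA per cell cannot be told apart. None of the 6 club and hillock markers was detected, and SCGB3A1, SCGB1A1, LTF and KRT4 were listed at 0 TPM.

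**Figure D2:**
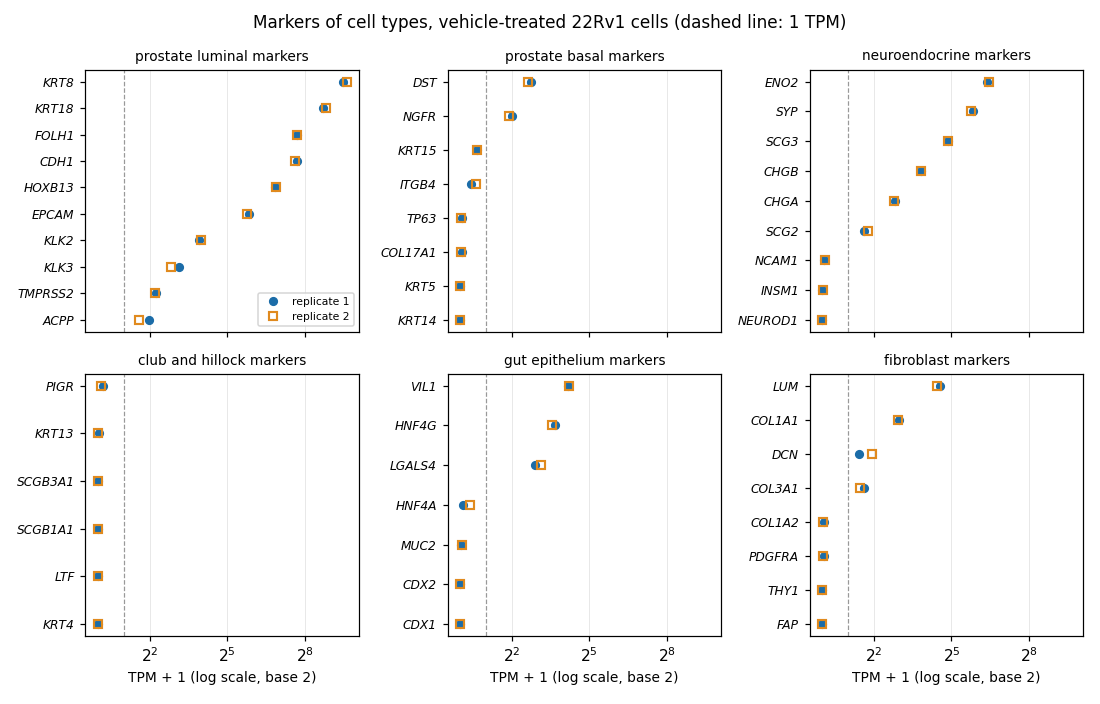
Levels of marker genes for 6 cell types in the 2 vehicle libraries, as TPM + 1 on a log scale of base 2, with filled circles for replicate 1 and open squares for replicate 2. All luminal markers plotted lie right of the dashed line at 1 TPM, and none of the 6 club and hillock markers does.

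Of 10 neuroendocrine markers 6 were detected, a share close to the 62.9% of all genes, so the count sets the list apart in neither direction. ENO2, the neuronal enolase, had 80.9 and 85.8 TPM. SYP, synaptophysin of secretory vesicles, had 56.0 and 53.3 TPM, SCG3, a granin of dense-core granules, had 28.5 TPM in both, and the chromogranins CHGB and CHGA had 13.3 and 13.1 TPM and 6.07 and 5.82 TPM. The neuroendocrine transcription factors named here were near 0, with INSM1 at 0 and 0.0205 TPM and NEUROD1 listed at 0 TPM in both. SRRM4, a neural splicing factor known from neuroendocrine prostate cancer, had 55.7 and 50.8 TPM, below the epithelial splicing factors ESRP1 (72.4 and 67.5 TPM) and ESRP2 (60.2 and 58.5 TPM).

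Markers of other tissues were mostly low, with a few high genes. Of 8 fibroblast markers, 4 were detected, led by the matrix proteoglycan LUM at 22.7 and 20.6 TPM, while THY1 and FAP were listed at 0 TPM. Smooth muscle had 2 of 6 markers detected and endothelium 1 of 6, with CNN1, DES, CDH5 and KDR listed at 0 TPM. The smooth muscle list summed to 21.3 and 23.1 TPM and the endothelial list to 2.63 and 3.30 TPM, mostly from the detected members. Leukocytes had 1 of 8, CD14, at 1.30 and 1.70 TPM, while CD3E, CD74 and MS4A1 were listed at 0 TPM. Without replicate 1 the leukocyte count was 2. Gut epithelium had 4 of 8. VIL1, villin of microvilli, had 17.2 and 17.5 TPM, and HNF4G, a nuclear receptor, 11.6 and 10.7 TPM, while CDX1 and CDX2, which define the intestine, were listed at 0 TPM. Of 4 liver markers, ALB, serum albumin, had 354 and 353 TPM, whereas TTR had 1.97 and 1.47 TPM and APOB and SERPINA1 were listed at 0 TPM.

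Mesenchymal genes were mixed. Of 10, 5 were detected, 50% against 62.9% of all genes. The list was led by FN1, fibronectin, at 57.5 and 51.9 TPM and the transcription factor SNAI2 at 35.7 and 37.0 TPM. TWIST1, another factor of mesenchymal transition, had 17.9 and 19.4 TPM, and VIM, vimentin, had 15.5 TPM in both libraries. The repressors of epithelial genes ZEB1 and ZEB2 lay under 1 TPM, and CDH1 was 98.3 ± 2.60 times as high as CDH2.

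Levels of the genes for coregulators and chaperones of steroid receptors spread widely, down to a lowest mean of 7.12 TPM. All 22 coregulators and chaperones were detected, with a median of 72.5 TPM. The cytosolic chaperones HSPA8, at 1934 and 1860 TPM, and HSP90AB1, at 1556 and 1557 TPM, led the list. The cyclin CCND1, which also binds nuclear receptors, came next at 1425 and 1355 TPM, and the chaperone HSP90AA1 followed at 919.7 and 889 TPM. FKBP5, a co-chaperone that is itself androgen-induced, had 741 and 693 TPM, 2.83 ± 0.162 times as high as its paralog FKBP4 at 252 and 255 TPM. PTGES3, the p23 co-chaperone, had 451 and 454 TPM. The coactivators of the NCOA family were lower, at 15.8 and 13.9 TPM for NCOA2, 12.1 and 10.3 TPM for NCOA3 and 7.43 and 6.80 TPM for NCOA1.

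Of 40 androgen-response genes, 37 were detected, but their levels spanned a wide range, with a median of 49.1 TPM. FKBP5 had the highest mean, 717 ± 33.6 TPM, and FOLH1 had 206 ± 2.44 TPM. DBI, an acyl-CoA-binding protein, had 197 and 211 TPM and overlapped FOLH1. KLK4, a serine protease, had 192 and 204 TPM, and SPDEF, an epithelial ETS factor, had 168 and 175 TPM. At the bottom, STEAP4 averaged 0.678 TPM, ALDH1A3 0.566 TPM and the cold-sensing channel TRPM8 0.00547 TPM.

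Within the kallikreins, a group of serine proteases, KLK4 led and not KLK3, the standard serum marker. Of 16 members, counting the plasma kallikrein KLKB1, 7 were detected. KLK4 held 72.3% ± 0.145 of the summed TPM and was 29.1 ± 6.01 times as high as KLK3. KLK1, the tissue kallikrein, came second at 41.9 and 47.3 TPM, and KLK2 was 2.13 ± 0.431 times as high as KLK3. KLK5, KLK9 and KLK12 were listed at 0 TPM. The 200 bases before the start of KLK4, KLK2 and KLK3 are shown because these neighbours share an androgen-regulated locus and differ in level, with the letters of RefSeq's GRCh38.p14 reference and not of these cells. Capitals mark AGAACA or its reverse complement TGTTCT, the core hexamer of the androgen response element.
KLK4: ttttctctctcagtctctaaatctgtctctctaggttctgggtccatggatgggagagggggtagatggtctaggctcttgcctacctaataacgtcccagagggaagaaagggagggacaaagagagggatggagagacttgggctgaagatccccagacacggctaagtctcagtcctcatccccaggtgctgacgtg
KLK2: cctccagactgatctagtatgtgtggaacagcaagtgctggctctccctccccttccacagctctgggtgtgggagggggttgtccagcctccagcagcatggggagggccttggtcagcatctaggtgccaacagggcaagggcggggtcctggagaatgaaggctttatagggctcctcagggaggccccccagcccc
KLK3: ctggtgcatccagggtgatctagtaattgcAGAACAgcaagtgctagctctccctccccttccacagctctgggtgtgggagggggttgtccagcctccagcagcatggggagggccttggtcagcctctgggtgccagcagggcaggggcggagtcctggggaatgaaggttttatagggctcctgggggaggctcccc

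The KLK4 window is chr19:50910739-50910938 on the minus strand, that of KLK2 is chr19:50873239-50873438 on the plus strand and that of KLK3 is chr19:50854715-50854914 on the plus strand. KLK4 has 2 starts in that reference, and only the window that comes first by coordinate is shown and scanned. KLK3 holds the exact hexamer, and the windows of the higher KLK4 and KLK2 do not. At the matching place KLK2 reads GGAACA, followed like the hexamer of KLK3 by gcaagtgct. A scan for the exact letters passes over such a near match, so KLK2 cannot be said to lack the element. The hexamer lies in 9.78% of the 35116 RefSeq windows of this length, on either strand. TATAAA or its reverse complement TTTATA lies in the windows of KLK2 and KLK3, and in 8.59% of all windows. A match describes these letters and marks no bound site, and a window without it says nothing of binding elsewhere.

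Genes for the first steps of androgen synthesis from cholesterol were at or near 0. Of 37 genes of synthesis and inactivation, 21 were detected (56.8%, against 62.9% of all genes) and 8 were listed at 0 TPM in both libraries. CYP11A1, which opens steroid synthesis, and both 3-beta-hydroxysteroid dehydrogenases, HSD3B1 and HSD3B2, were listed at 0 TPM. CYP17A1, which makes the adrenal androgen precursors, had 0 and 0.0198 TPM. Later steps had some RNA. AKR1C3, which reduces androstenedione to testosterone, had 12.2 and 12.3 TPM, while HSD17B3, the testicular enzyme for the same step, was listed at 0 TPM.

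The 5-alpha-reductases, which make dihydrotestosterone, were not used alike. SRD5A3, which also acts in protein glycosylation, had 26.3 and 25.7 TPM and SRD5A1 10.8 and 10.1 TPM, while SRD5A2, the main enzyme of the normal prostate, was listed at 0 TPM. Of the UGT2B enzymes that attach glucuronic acid to androgens, UGT2B15 had 6.65 and 7.15 TPM and UGT2B17 0.292 and 0.258 TPM; reads can be shared among these similar genes, as among AKR1C genes. The highest genes of the list, HSD17B10 at 311 and 338 TPM and HSD17B4 at 177 and 169.8 TPM, act mainly in mitochondrial isoleucine breakdown and peroxisomal fatty acid oxidation. HSD11B2, which inactivates cortisol, had 12.6 and 14.4 TPM and HSD11B1, which restores it, was listed at 0 TPM.

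**Figure D3:**
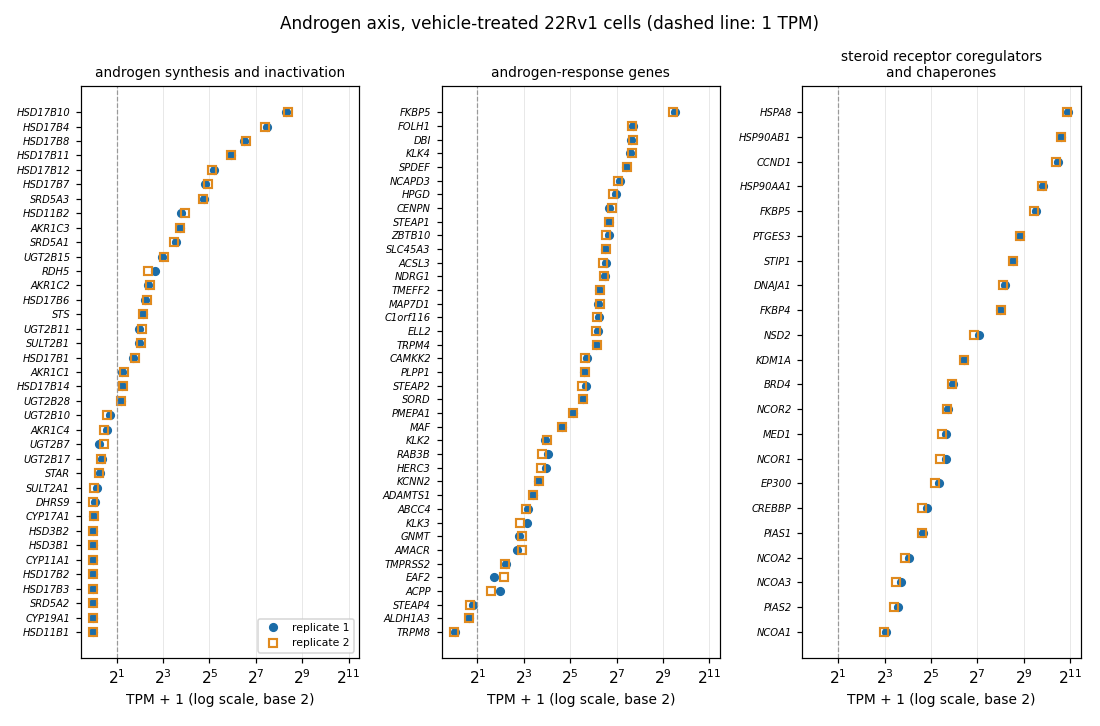
Levels of androgen synthesis and inactivation genes, androgen-response genes and steroid receptor coregulators in the 2 vehicle libraries, as TPM + 1 on a log scale of base 2, with filled circles for replicate 1 and open squares for replicate 2. All 22 coregulators and chaperones lie right of the dashed line at 1 TPM, and HSD3B1, SRD5A2 and TRPM8 lie left of it.

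Among transcription factors of the prostate lineage, 16 of 20 were detected. FOXA1, a pioneer factor that opens chromatin, had 215 and 212 TPM. HOXB13, a homeobox factor of the prostate, had 115 and 117 TPM, below SPDEF at 168 and 175 TPM without overlap. GATA2, a zinc finger factor, had 66.7 and 69.1 TPM, and SOX9 had 34.9 and 33.1 TPM. ONECUT2, linked to advanced prostate cancer, had 10.2 and 8.61 TPM.

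Of 48 nuclear receptors, 32 were detected, 66.7% against 62.9% of all genes. ESRRA, the estrogen-related receptor that drives mitochondrial genes, had 153 and 164 TPM. NR2F6, an orphan receptor, averaged 119 ± 4.72 TPM. The glucocorticoid receptor NR3C1 had 10.5 and 9.76 TPM, and the mineralocorticoid receptor NR3C2 had 4.56 and 3.99 TPM. The estrogen and progesterone receptors were under 1 TPM, at 0.595 and 0.338 TPM for ESR2, 0.0398 and 0.0429 TPM for ESR1 and 0 and 0.0140 TPM for PGR. PPARG, NR0B1, NR2E3 and RXRG were listed at 0 TPM.

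HOX genes, which record position along the body axis, differed by cluster. The HOXA cluster had 10 of 11 members detected and a mean sum of 102 TPM, HOXB 9 of 10 and 174 TPM, and HOXC 8 of 9 and 81.8 TPM. The HOXD cluster had none of 9 detected and a sum of 0.333 TPM, with HOXD9 highest at 0.222 TPM and HOXD1, HOXD3, HOXD4, HOXD10, HOXD11 and HOXD12 listed at 0 TPM. HOXB13, the prostate member, was 3.18 ± 0.0456 times as high as HOXA10 at 35.8 and 37.1 TPM, and held 32.4% ± 0.344 of all HOX TPM. HOXC10 averaged 22.0 ± 1.38 TPM.

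**Figure D4:**
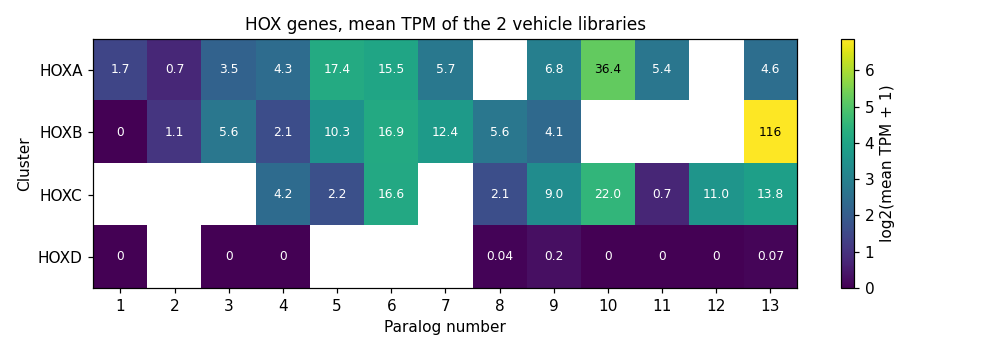
Mean TPM of the 39 HOX genes in the 2 vehicle libraries, by cluster (rows) and paralog number (columns), with colour as log2(mean TPM + 1) and white where no gene exists. HOXB13 is highest, with 115 TPM in replicate 1 and 117 TPM in replicate 2, and the row of HOXD genes sums to 0.333 TPM.

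In the ETS family, 21 of 28 genes were detected and the epithelial factor SPDEF led. ERG, which is joined to the TMPRSS2 promoter in many prostate tumours, had 0.115 and 0.102 TPM. ETV4 and ETV1, other fusion partners, had 19.8 TPM in both libraries and 8.03 and 7.48 TPM. FLI1 and ETV3L were listed at 0 TPM.

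FOX genes had 23 of 45 detected, led by FOXA1 and by FOXM1, a driver of mitotic genes, at 141 and 139.9 TPM. SOX genes had 8 of 19, led by SOX4 at 64.5 and 59.2 TPM, with the neural and stem cell factor SOX2 at 0.774 and 0.432 TPM. GATA genes had 2 of 6, GATA2 and GATA6. Of the TEAD factors, the DNA-binding partners of YAP, all 4 were detected and TEAD2 led at 56.8 and 60.6 TPM. Stem and germ cell factors had 1 of 10, POU5F1, at 4.50 and 5.27 TPM, and LIN28B, PRDM14, DPPA4 and DAZL were listed at 0 TPM.

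Of 58 receptor tyrosine kinases 30 were detected and only DDR1, a collagen receptor, passed 100 TPM, with 114 and 115 TPM. EPHB4 and EPHA3, ephrin receptors, had 81.6 and 81.3 TPM and 66.4 and 61.6 TPM. EGFR had 80.5 and 70.4 TPM, 1.79 ± 0.239 times as high as ERBB2 at 41.0 and 43.4 TPM. MUSK, FLT3, KDR, ROR2, NTRK3 and ROS1 were listed at 0 TPM.

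Integrins had 11 of 26 detected, with the common beta subunit ITGB1 at 128 and 121 TPM and ITGB5 at 71.6 and 74.5 TPM. ITGAV, their alpha partner in matrix binding, had 24.6 and 21.1 TPM. Notch and Frizzled receptors had 16 of 19 detected, and none reached 100 TPM. LRP5, a Wnt coreceptor, led at 35.6 and 33.9 TPM. TGF-beta family receptors had 12 of 14, led by the activin receptor ACVR1B at 24.5 and 24.8 TPM, while TGFBR2 had 1.97 and 2.06 TPM.

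The list of prostate surface antigens, which holds treatment targets beside other genes, had 14 of 18 members detected. FOLH1 led, and CD46 had 139 and 129 TPM and STEAP1 101 TPM in both libraries. CD276, the immune ligand B7-H3, had 63.7 and 58.5 TPM. DLL3, a Notch ligand of neuroendocrine tumours, had 5.37 and 6.48 TPM. PROM1, a marker of stem-like cells, was listed at 0 TPM.

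Chemokine receptors, which couple to G proteins, had 2 of 22 members detected, and CCR10, at 31.7 and 35.0 TPM, held 92.8% ± 0.509 of their summed TPM. Aminergic receptors had 5 of 31, led by the adrenergic receptor ADRA2A at 8.58 and 8.34 TPM. Peptide hormone receptors had 13 of 48, and the accessory protein RAMP1, at 168 and 196 TPM, led them. Its partner for calcitonin gene-related peptide, CALCRL, had 0.0472 and 0.0644 TPM. The peptide hormone list also counts receptors of other kinds, such as the insulin receptor INSR. Among subunits of nicotinic acetylcholine receptors, which are ion channels, 8 of 16 were detected, with CHRNA2 at 32.1 and 32.7 TPM and CHRNE at 26.9 and 31.5 TPM. Taste receptors had none of 27, and 1 without replicate 2, and olfactory receptors 6 of 386, with 320 listed at 0 TPM. The prostate-enriched olfactory receptors OR51E1 and OR51E2 were among those at 0.

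Secreted products included several abundant peptides. Of 83 peptide hormones and neuropeptides, 35 were detected and 4 had at least 100 TPM in both libraries. VGF, the precursor of neuroendocrine peptides, had 774 and 793 TPM. APLN, which encodes apelin, had 501 and 502 TPM, while its receptor APLNR was listed at 0 TPM. PCSK1N, an inhibitor of prohormone convertase, had 155 and 179 TPM, and NMB, neuromedin B, 129 and 157 TPM. SST, INS, GRP, PENK and CRH were among 19 precursors listed at 0 TPM.

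Growth factors were led by MDK, midkine, a heparin-binding factor, at 1331 and 1457 TPM, which held 81.5% ± 1.02 of the summed TPM of its list. HGF, hepatocyte growth factor, a product known chiefly from stroma, had 131 and 126 TPM. It was 27.4 ± 2.41 times as high as its receptor MET at 5.08 and 4.34 TPM. VEGFA had 60.6 and 53.7 TPM and ANGPTL4 55.7 and 61.0 TPM, ranges that overlapped.

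Ligand families were sparse. In the TGF-beta family 13 of 34 were detected and GDF15, a stress-induced cytokine, led at 142 and 143 TPM, followed by AMH, anti-Mullerian hormone, at 43.8 and 50.7 TPM. WNT genes had 7 of 19, led by WNT10B at 22.1 and 22.7 TPM. FGF genes had 4 of 22, and the leader FGF13, at 20.4 and 18.8 TPM, is an intracellular member that is not secreted. EGF family ligands had 3 of 11, with HBEGF highest at 4.62 and 5.33 TPM and NRG1 listed at 0 TPM.

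Few immune ligands were detected. Chemokines had 3 of 41 detected, CXCL16 at 33.7 and 30.4 TPM, CX3CL1 at 9.87 and 11.2 TPM and XCL1 at 2.51 and 3.39 TPM, and 28 were listed at 0 TPM. Interleukins had 2 of 39, IL17D and IL11, both under 3 TPM, and IL6 and IL1B were among 21 at 0. All 21 interferon genes were listed at 0 TPM in both libraries.

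Among proteins of prostatic fluid 9 of 20 were detected. CLU, clusterin, an extracellular chaperone, had 282 and 295 TPM and CST3, cystatin C, 106 and 118 TPM. MSMB, the microseminoprotein, was listed at 0 TPM, as were TGM4, SEMG1, SEMG2 and PIP. SPINK1, a trypsin inhibitor that marks a subset of prostate tumours, averaged 10.6 ± 0.584 TPM. Of the IGF-binding proteins IGFBP2 alone was high, at 93.8 and 104 TPM, and held 97.4% ± 0.0470 of the family.

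Matrix genes were low. Collagens had 16 of 44 detected and none reached 100 TPM. COL4A5, of basement membranes, led at 22.5 and 20.8 TPM, and COL4A1, its common relative, was listed at 0 TPM. The chains of type I collagen were uneven, with COL1A1 at 6.79 and 6.56 TPM and COL1A2 at 0.0582 and 0.0211 TPM. TIMP1, an inhibitor of metalloproteinases, had 134 and 138 TPM, above all metalloproteinases of the list, of which MMP15 was highest at 39.5 and 41.9 TPM. Serpins had 8 of 34, led by the intracellular SERPINB6 at 86.6 and 85.1 TPM.

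Choice among paralogs was compared in 49 families. In 32 of them the leading gene held over 50% of the family's TPM in both libraries, and in 7 it held over 90%. In 23 families at least 1 member was listed at 0 TPM in both libraries. Of all genes 14.8% were so listed, and a large family would often hold such a gene at that share, so this count is no measure of choice. The order of the first and second genes was the same in both libraries without overlap in all families except the actins. There ACTB had 3975 and 4109 TPM and ACTG1 3983 and 4055 TPM, a ratio of 1.01 ± 0.0109, and reads can be shared between these similar genes.

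**Figure D5:**
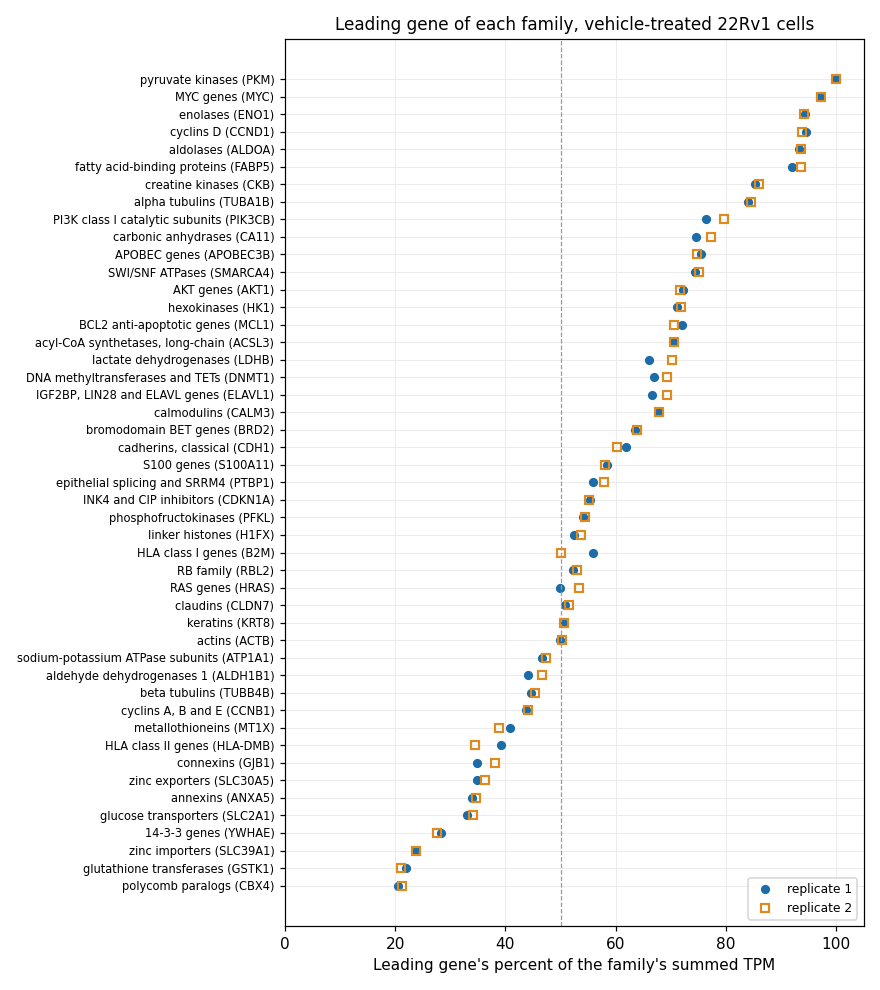
Percent of a family's summed TPM held by its leading gene, named in parentheses, in each of the 2 vehicle libraries, by family. Families whose leading gene is not reported here are not drawn. PKM, MYC, ENO1, CCND1, ALDOA and FABP5 lie above 90% in both libraries.

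Glycolysis leaned on the widespread isoforms. PKM, the pyruvate kinase of most tissues, held nearly all TPM of its pair at 864 and 878 TPM, with the liver and red cell gene PKLR at 0.0946 and 0.0119 TPM. ENO1 held 94.3% ± 0.0625 of the enolases and ALDOA 93.5% ± 0.217 of the aldolases. HK1 held 71.6% ± 0.485 of the hexokinases, above HK2 at 67.5 and 63.4 TPM. LDHB, whose product favours lactate use, had 1634 and 1643 TPM, 2.16 ± 0.292 times LDHA at 837 and 695 TPM. The liver glucose transporter SLC2A2 was listed at 0 TPM and SLC2A1 led its family at 38.2 and 38.1 TPM.

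Creatine kinase was the brain form. CKB held 85.7% ± 0.568 of its family, and the muscle gene CKM had 0.0851 and 0.0227 TPM. The mitochondrial copies CKMT1B and CKMT1A had 216 and 221 TPM and 192 and 196 TPM, though these copies are near-identical and their reads may be shared. FABP5 held 92.9% ± 1.20 of the fatty acid-binding proteins at 109.9 and 114 TPM, while FABP1, FABP2 and FABP4 of liver, gut and fat were listed at 0 TPM. Of the acyl-CoA synthetases the androgen-responsive ACSL3 led with 70.5% ± 0.0170.

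Zinc importers, of interest because the prostate concentrates zinc, had 11 of 14 members detected. SLC39A1, the importer known from prostate cells, had 232 TPM in both libraries and SLC39A7, of the endoplasmic reticulum, 222 and 223 TPM. Exporters were lower, with SLC30A5 at 47.0 and 47.1 TPM.

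A few members also led the structural families. Of 55 keratins 5 were detected, KRT8, KRT18, KRT19 (276 and 304 TPM), KRT10 and KRT7, and 33 were listed at 0 TPM. Claudins were led by CLDN7 at 219.6 and 225 TPM, followed by CLDN4 at 88.8 and 82.1 TPM and CLDN3 at 61.1 and 67.7 TPM. CDH1 held 61.0% ± 1.15 of the classical cadherins. TUBA1B held 84.3% ± 0.425 of the alpha tubulins, while the beta tubulins were split between TUBB4B at 1469 and 1560 TPM and TUBB at 1298 and 1334 TPM. TUBB3, the neuronal beta tubulin, had 322 and 347 TPM. Tubulin genes are alike enough for reads to be shared.

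Leaders of signalling and cell cycle families differed in how far they stood above the rest. CCND1, cyclin D1, had 1425 and 1355 TPM and was 16.1 ± 1.57 times as high as CCND3, while CCND2 was listed at 0 TPM. MYC held 97.2% ± 0.0378 of its family at 232 and 226 TPM, and MYCN had 0.0225 and 0 TPM. AKT1 was 2.56 ± 0.0489 times as high as AKT2. PIK3CB, the p110-beta subunit, held 78.0% ± 2.40 of the class I catalytic subunits at 21.9 and 23.4 TPM, with PIK3CA at 5.91 and 5.23 TPM. HRAS had 144 and 159 TPM, above NRAS at 35.9 and 33.7 TPM.

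Cell cycle inhibitors were all detected, 7 of 7. CDKN1A, the p21 inhibitor of cyclin-dependent kinases, had 342 and 357 TPM, and CDKN2A, p16 and ARF, 88.3 and 98.5 TPM. RB1, the retinoblastoma protein, averaged 26.6 ± 2.36 TPM. The chromatin genes SMARCA4 and BRD2 led their families, with SMARCA4 at 2.96 ± 0.0728 times SMARCA2. DNMT1, the maintenance methyltransferase, had 126 and 125 TPM. MCL1 led the anti-apoptotic genes at 165 and 156 TPM, and BCL2 had 3.42 and 3.99 TPM.

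Antigen presentation was partial. B2M, the shared light chain of class I molecules, had 239 and 201 TPM and HLA-C 97.9 and 101 TPM. HLA reads are shared among similar and variable genes, so these levels are uncertain. Class II genes had 4 of 13 detected, all under 10 TPM in both libraries. In DNA repair, mismatch repair genes had 8 of 9 detected, and MSH3 had 1.80 and 1.74 TPM. APOBEC3B, a cytidine deaminase that mutates tumour DNA, held 75.1% ± 0.557 of its family at 24.1 and 22.7 TPM.

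Glutathione transferases had 13 of 16 members detected, led by GSTK1 at 89.8 and 88.5 TPM. GSTP1, known to be silenced by promoter methylation in most prostate cancers, had 0.134 and 0.107 TPM. The window before its start is shown beside that of TMSB10, the second highest gene of the table. Both are rich in CG dinucleotides, marked by capitals, while their levels lie far apart. The letters are again those of the reference.
TMSB10: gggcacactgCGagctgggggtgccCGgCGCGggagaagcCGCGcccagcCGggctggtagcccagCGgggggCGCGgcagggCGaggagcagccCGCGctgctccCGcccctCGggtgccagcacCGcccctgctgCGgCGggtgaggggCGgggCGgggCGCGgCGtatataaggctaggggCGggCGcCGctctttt
GSTP1: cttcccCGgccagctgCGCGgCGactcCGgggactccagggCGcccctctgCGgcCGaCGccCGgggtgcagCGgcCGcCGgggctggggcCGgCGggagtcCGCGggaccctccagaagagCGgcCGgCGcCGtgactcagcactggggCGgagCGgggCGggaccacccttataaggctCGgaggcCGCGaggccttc

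The TMSB10 window is chr2:84905456-84905655 and holds 26 CG dinucleotides, more than 89.2% of all RefSeq windows. That of GSTP1 is chr11:67583612-67583811 and holds 27, more than 90.9%. Both are on the plus strand, and the median window holds 9. No methylation was measured.

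Several tissue-restricted classes were close to empty. Keratin-associated proteins of hair had 1 of 94 members detected, with 77 listed at 0 TPM, defensins none of 45 with 40 at 0, and crystallins of the lens 1 of 14 with 7 at 0. Without replicate 2 there was 1 defensin detected, and without replicate 1 there were 2 crystallins. T and B cell receptor signalling had none of 14, and CD3D, CD3E, CD3G, CD2, CD28 and CD79B were listed at 0 TPM.

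Other restricted classes held high exceptions. Of 82 cancer-testis antigens, germ cell genes that tumours may switch on, 21 were detected, 42 were listed at 0 TPM and 8 had at least 100 TPM in both libraries. MAGEA4 led at 457 and 467 TPM and CTAG2 had 336 and 361 TPM. CTAG1B and CTAG1A, SSX2B and SSX2, and MAGEA3 and MAGEA6 lay between 114 and 179 TPM in each library, but each pair is near-identical and cannot be separated with certainty.

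Of 13 globins 6 were detected. HBA2 and HBA1, the near-identical genes of alpha globin, had 389 and 425 TPM and 311 and 340.0 TPM, while beta globin, HBB, had 0.322 and 0.0894 TPM. MB, myoglobin, had 44.9 and 43.1 TPM. In the sarcomere list 4 of 24 genes were detected, with the slow skeletal troponin TNNT1 at 179 and 189 TPM and the cardiac troponin TNNI3 at 45.5 and 48.8 TPM. The myosins MYH1, MYH2 and MYH4 were listed at 0 TPM. The leukocyte markers summed to 2.58 and 3.63 TPM and the smooth muscle markers to 21.3 and 23.1 TPM. Neither list was made to mark red cells or striated muscle, and the source of the globin and troponin levels was not tested.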

How the data were processed

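Polyadenylated RNA of 22Rv1 cells was sequenced in 6 libraries, and the 2 labelled Vehicle were used. The authors deposited TPM values per gene. Reads were processed with STAR and StringTie on hg19, per the submitters' processing notes; versions, annotation, strandedness and any filter: not given in the sources used here. Overlapping, antisense and near-identical genes are therefore uncertain. Depth cannot be recovered from TPM and is unknown, and no counting interval is given. Of 20315 rows, 18 duplicate entries of pseudoautosomal genes were dropped, and 27 symbols turned into dates were renamed from their identifiers. PECAM1, CD24, GSTT2 and HILS1 were not analysed here, and the levels of some genes that the lists hold are not reported here.

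With 1 group described, no test was made and no p-value is given. A gene was detected at 1 TPM or more in both libraries; list levels are medians of member means. Tables were made with pandas 2.3.3 and numpy 2.4.6 in Python 3.11.15, and counting was tested on simulated data, in which 200 of 200 genes moved across the threshold were recovered among 20297. Every simulated gene was kept clear of 1 TPM, so full recovery checks the counting code and says nothing of genes near the threshold. Named genes were the 30 highest, up to 6 leading members of each of 113 lists, members at 0 in both libraries, 38 key genes and the 5 largest replicate differences each way among genes of at least 10 TPM. Chosen after their values were seen were GSTP1, NCOA1 to NCOA3, CALCRL, MET, HBB, HOXD9, STEAP4, ALDH1A3, TRPM8, ZEB1, ZEB2, MSH3, TGFBR2, DLL3, INSM1, HSD11B2 and FKBP4. The members and lists were chosen with earlier results of these data known. Symbols are as deposited, except those turned into dates.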

Additional observations from a re-analysis of the deposited data

How the results depend on the processing

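The number of detected genes, 12764, ranged from 10480 at 5 TPM to 16219 above 0 TPM, with 13538 at 0.5 TPM, 11886 at 2 TPM and 12917 to 12943 with either replicate left out, all within 1.5 times. Rescaling the table to 1000000 TPM multiplied levels by 1.23 on average, or 1.43 without ribosomal proteins. It moved the share of the top 10 genes to 5.50% (5.22% without ribosomal proteins), of the top 50 to 15.5% (13.1%) and of the top 100 to 23.1% (18.1%), against 4.47%, 12.6% and 18.8% as deposited. Leaving out a replicate gave 4.41% to 4.52%, 12.4% to 12.8% and 18.4% to 19.1%. The members detected in a list were 908 of 2369 over all lists, 925 with either replicate alone and 1353 above 0 TPM. Of 113 lists, counts stayed within 1.5 times in 106 at 0.5 TPM, 104 at 2 TPM, 77 at 5 TPM, 65 above 0 TPM and 112 after rescaling. Leukocyte markers went to 3 at 0.5 TPM and 0 at 2 TPM, olfactory receptors to 2 at 2 TPM and taste receptors to 2 after rescaling. Families whose leader held over 50% of the mean TPM numbered 34, and 32 to 34 with a replicate left out, and the leader changed only for the actins, to ACTG1 without replicate 2. No paired analysis was possible because only the vehicle group was described and no groups were compared.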
